A study of Homo sapiens with 21 samples.

Results

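These data follow chromatin contacts of 51 enhancers through the first day in which B cells are turned into macrophage-like cells, and set the library of the 24 h time point against that of the 0 h time point at each locus. The members are all loci captured from an enhancer in these 2 groups, 51 of the 53 in the series, with 2 left out. They come from 6 of the 21 samples. The cells of both groups were BLaER1 (labelled BLaER), a human B cell leukemia line that carries an inducible form of the transcription factor C/EBPα. The 0 h cells (TriC Enhancer 0h, 3 replicates) were in plain culture, and the 24 h cells (TriC Enhancer 24h, 3 replicates) had been given 17β-estradiol, IL-3 and CSF1 for 24 h, which starts their conversion into induced macrophages, or iMacs. Neither group carried the CTCF degron or received auxin, which belong to other samples of the series. The study classed 36 of the genes as specific to iMacs and 15 as specific to B cells from their expression. No expression was measured in these libraries, so cell identity could not be checked against markers here.

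Enhancers are stretches of DNA that raise transcription of a gene from a distance, and they often lie close to the promoter in space when the gene is active. CTCF is a DNA-binding protein that stalls the loop-extruding cohesin complex and so shapes which enhancers and promoters meet. C/EBPα drives the granulocyte and macrophage program, while factors such as EBF1 and PAX5 hold cells in the B lineage. In Tri-C, crosslinked chromatin is cut with the enzyme NlaIII and religated, and reads that hold a chosen viewpoint fragment are captured. A read with 2 or more further fragments, the reporters, records a contact of at least 3 places in the genome at once.

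Each deposited count is the number of times that a pair of reporters was seen with the viewpoint. The 3 replicates of a group were pooled before deposit, which leaves 1 library per locus and condition, so the differences have no replicate check and all intervals (95%, in square brackets) cover counting error only. The 51 loci held 2547225 counts at 0 h whose reporters both lay up to 1 Mb from the viewpoint, and 2778520 such counts at 24 h. These form the totals, and a single locus held 22165 to 88689 at 0 h and 25239 to 99384 at 24 h. A median of 26.4% of a total at 0 h and 27.2% at 24 h was distant, meaning that viewpoint and reporters were all separated by more than 10 kb. The E-P-X share of an enhancer is the part of its total made of distant counts with a reporter in the 12 kb around the start of the target gene and the other reporter anywhere. A share was said to have risen or fallen when the ratio of the 24 h share to the 0 h share was at least 25% above 1, or was 0.8 or lower (its inverse), and its 95% interval lay beyond 1. Counts of a read with many reporters are not independent, and reads carried no molecular identifiers, so the intervals understate the error.

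The viewpoint of an enhancer is the single NlaIII fragment that the capture oligonucleotide matches. At 50 of the 51 loci the listed oligonucleotide lay in the gap that the captured fragment leaves among the reporters, and there the fragment was 130 to 319 bases long (median 208). At the remaining locus the gap lay away from the listed oligonucleotide. Of the 51 viewpoint fragments 26 were intergenic, 20 intronic and 5 overlapped an exon. The target promoter lay a median of 66.7 kb from its enhancer, between 21.3 kb at RAG2 and 588 kb at EBF1.

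Fragments of 7 loci whose contacts changed are printed here because all counts of a locus were taken from this one piece of DNA. They are shown 5′ to 3′ on the plus strand of hg38, with the NlaIII sites (CATG) in capitals. FOSL2 was viewed from chr2:27955681-27955977, in an intron of BABAM2, where the last site is not printed, KLF6 from chr10:4131550-4131712, which is intergenic, and CCR1 from chr3:46089518-46089663, in an intron of a noncoding gene. Among the B cell loci, IGLL1 was viewed from chr22:23752137-23752425, which is intergenic, IL7R from chr5:35908664-35908853, in an intron of CAPSL, EBF1 from chr5:158511611-158511794, in an intron of a noncoding gene, and RAG2 from chr11:36619385-36619609, in an intron of IFTAP.
FOSL2: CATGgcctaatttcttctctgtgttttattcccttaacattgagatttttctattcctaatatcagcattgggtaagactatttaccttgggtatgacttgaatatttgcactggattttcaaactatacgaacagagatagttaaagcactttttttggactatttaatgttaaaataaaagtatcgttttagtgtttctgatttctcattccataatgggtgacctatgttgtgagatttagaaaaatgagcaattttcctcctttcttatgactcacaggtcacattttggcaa
KLF6: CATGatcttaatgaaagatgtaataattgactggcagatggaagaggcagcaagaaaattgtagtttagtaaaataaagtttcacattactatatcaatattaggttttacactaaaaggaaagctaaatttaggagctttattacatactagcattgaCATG
CCR1: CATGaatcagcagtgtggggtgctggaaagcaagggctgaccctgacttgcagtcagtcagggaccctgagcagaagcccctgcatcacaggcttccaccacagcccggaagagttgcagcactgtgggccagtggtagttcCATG
IGLL1: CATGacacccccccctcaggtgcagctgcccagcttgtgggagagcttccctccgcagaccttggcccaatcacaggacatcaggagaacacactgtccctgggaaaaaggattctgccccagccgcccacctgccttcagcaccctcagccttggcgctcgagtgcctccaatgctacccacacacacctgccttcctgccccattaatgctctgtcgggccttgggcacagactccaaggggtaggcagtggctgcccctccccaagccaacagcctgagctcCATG
IL7R: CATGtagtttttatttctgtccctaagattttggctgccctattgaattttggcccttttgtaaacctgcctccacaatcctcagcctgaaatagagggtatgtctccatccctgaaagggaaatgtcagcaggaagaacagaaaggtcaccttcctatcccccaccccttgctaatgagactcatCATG
EBF1: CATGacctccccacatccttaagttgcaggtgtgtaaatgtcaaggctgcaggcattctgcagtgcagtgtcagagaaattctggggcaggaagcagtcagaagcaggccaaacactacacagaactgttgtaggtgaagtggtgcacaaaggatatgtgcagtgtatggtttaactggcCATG
RAG2: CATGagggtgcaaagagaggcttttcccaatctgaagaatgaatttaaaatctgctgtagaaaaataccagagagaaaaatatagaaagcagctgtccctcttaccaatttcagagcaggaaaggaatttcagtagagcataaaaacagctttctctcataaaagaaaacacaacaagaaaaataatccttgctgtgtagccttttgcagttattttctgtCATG

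A motif of C/EBP factors, TTGCNNAA on either strand, was present in 5 of 35 iMac fragments and 2 of 15 B cell fragments, against 11.1% and 11.8% of fragments of like length around them. The FOSL2 fragment held 1 such match. The core GGAAGT (either strand) bound by PU.1 was present in 7 iMac and 2 B cell fragments, against 11.1% and 12%, and a palindromic EBF1 motif in 0 of the 50, against 0.293% and 0.332%.

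By 24 h, many enhancers of macrophage genes held a larger share of contacts with their promoters, and most enhancers of B cell genes a smaller one. Among the 36 iMac loci the E-P-X share rose at 21 and fell at none, with a median ratio of 1.31. Among the 15 B cell loci it fell at 13 and rose at none, the median ratio being 0.613. For comparison, of the 12 kb windows tiled along the iMac loci 11.7% rose and 23.0% fell, and of those along the B cell loci 32.5% rose and 7.02% fell. Among windows with as many counts as the sparsest promoter (203 or more over both libraries, within 600 kb), 15.2% rose and 18.5% fell around iMac genes, and 30.1% rose and 10.9% fell around B cell genes. The median share of the iMac enhancers went from 1.01% to 1.43%, and that of the B cell enhancers from 1.97% to 1.33%. The classes differ in promoter distance, so their levels are not like for like. Within 50 kb the 24 h medians of iMac and B cell loci were 2.28% and 2.19%. At 50 to 150 kb they were 1.21% and 1.87%, and at 150 to 600 kb 0.757% and 0.717%. These classes were set by the study from expression over the conversion, so their directions of contact are not independent of that choice of genes.

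**Figure D1:**
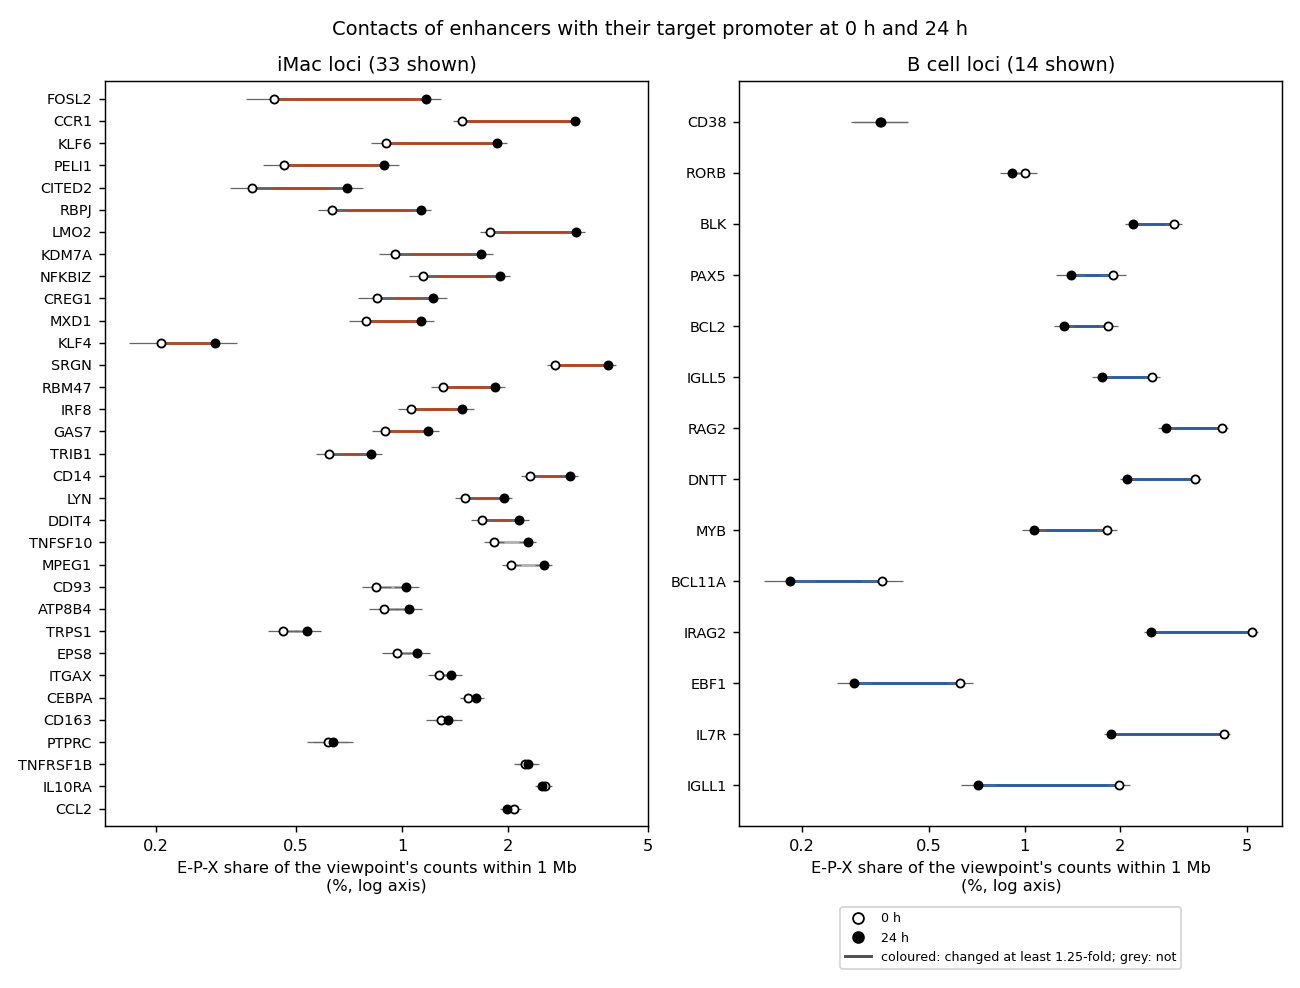
E-P-X share of each enhancer at 0 h (open circles) and 24 h (filled circles), as percent of the viewpoint's counts within 1 Mb on a log axis, with exact 95% counting intervals as thin bars, for 33 iMac and 14 B cell loci (1 pooled library per time). Colored lines mark shares that rose or fell by the stated rule. FOSL2 has the largest rise of the loci shown, from 0.432% to 1.17%, and IGLL1 the largest fall, from 1.98% to 0.717%.

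Of the 13 myeloid transcription regulators, 11 rose, with a median ratio of 1.66. The AP-1 subunit gene FOSL2 had the largest ratio of all loci. Its enhancer lies 437 kb away, and its share went from 0.432% (128 of 29605 counts) to 1.17% (397 of 33901), a ratio of 2.71 [2.21, 3.33]. KLF6, a Krüppel-like factor whose enhancer is 346 kb off, went from 0.903% (412 of 45610 counts) to 1.87% (921 of 49314), a ratio of 2.07 [1.84, 2.33]. Intervals of the 2 shares did not overlap at either locus. CITED2, a coregulator that binds CBP and p300, rose from 0.375% (196 of 52332 counts) to 0.697% (351 of 50378) over 465 kb, a ratio of 1.86 [1.56, 2.23]. The longest distances among the regulators, 437 kb and 465 kb, were those of FOSL2 and CITED2.

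RBPJ, the DNA-binding partner of Notch, went from 0.632% to 1.13%, a ratio of 1.79 [1.6, 2.00], measured at the canonical start. At the outermost start of the gene the log2 ratio was -0.02 instead. LMO2, a bridging subunit of transcription complexes in blood cells, rose from 1.78% to 3.13% with a ratio of 1.76 [1.61, 1.92] and KDM7A, a histone demethylase, from 0.958% to 1.68% with a ratio of 1.75 [1.53, 2.01]. NFKBIZ, an atypical IκB protein, went from 1.15% (495 of 43221 counts) to 1.90% (932 of 49021), a ratio of 1.66 [1.49, 1.85], and at its outermost start the log2 ratio was 0.19. The MYC antagonist MXD1 rose from 0.790% to 1.13%, IRF8, which acts in myeloid and B cells, from 1.06% to 1.48%, and KLF4 from 0.207% to 0.294%. The share of KLF4 rested on 272 counts over both libraries.

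The other 2 regulators stayed under the threshold. CEBPA, the endogenous gene of the converting factor, held 1220 of 79037 counts at 0 h and 1367 of 84026 at 24 h, a ratio of 1.05 [0.975, 1.14], so that a rise of 25% lay outside its counting interval. TRPS1, a GATA-type repressor, had a ratio of 1.17 [1.03, 1.34].

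Among 13 loci of macrophage surface and secreted proteins 4 rose, and the median ratio was 1.22. CCR1, a receptor for inflammatory chemokines, had the most E-P-X counts of all loci that rose and went from 1.48% (1280 of 86585 counts) to 3.10% (3020 of 97353), a ratio of 2.10 [1.97, 2.24]. SRGN, the core protein of granule proteoglycan, went from 2.73% (1254 of 45949 counts) to 3.86% (1635 of 42360), a ratio of 1.41 [1.31, 1.52]. CREG1, a lysosomal glycoprotein, rose from 0.847% to 1.22% and CD14, the co-receptor for bacterial lipopolysaccharide, from 2.31% to 3.00%. The ratios of TNFSF10 (the death ligand TRAIL), MPEG1 (a pore-forming protein of macrophages) and CD93 were 1.245 [1.14, 1.36], 1.24 [1.13, 1.35] and 1.22 [1.07, 1.38], with intervals above 1 but ratios under the threshold. The chemokine gene CCL2 had 0.957 [0.894, 1.02] and the interleukin-10 receptor gene IL10RA 0.978 [0.916, 1.04], and both intervals excluded a rise of 25% and a ratio of 0.8. Ratios of the TNF receptor gene TNFRSF1B, the integrin gene ITGAX, the scavenger receptor gene CD163 and PTPRC (CD45) lay between 1.02 and 1.08.

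The remaining 10 iMac genes, in signalling and other functions, held 6 that rose. PELI1, a ubiquitin ligase of Toll-like receptor signalling, stood highest and went from 0.462% (219 of 47445 counts) to 0.887% (379 of 42748), a ratio of 1.92 [1.62, 2.28]. RBM47, an RNA-binding protein, rose from 1.31% to 1.84%, GAS7, an actin-binding protein, from 0.896% to 1.19%, the pseudokinase gene TRIB1 from 0.622% to 0.817%, the Src family kinase gene LYN from 1.51% to 1.95% and DDIT4, a brake on the kinase mTORC1, from 1.69% to 2.15%. The ratio of DDIT4, 1.27 [1.15, 1.41], lay close to the threshold, and other windows, exclusions or totals put it under. Ratios of the flippase gene ATP8B4 and the actin regulator EPS8 were 1.18 [1.04, 1.35] and 1.14 [1.01, 1.3].

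All 4 B lineage transcription factors had a smaller share at 24 h, with a median ratio of 0.551. EBF1, which commits cells to the B lineage, went from 0.628% (439 of 69931 counts) to 0.291% (268 of 91960), a ratio of 0.464 [0.397, 0.542]. BCL11A, a repressor of lymphoid and erythroid cells, went from 0.357% (171 of 47911 counts) to 0.184% (118 of 64214), a ratio of 0.515 [0.404, 0.655]. MYB, a factor of blood progenitors, went from 1.82% (708 of 38891 counts) to 1.07% (536 of 49903), a ratio of 0.590 [0.526, 0.661]. PAX5, which keeps B cell identity, fell from 1.89% to 1.40%, a ratio of 0.740 [0.640, 0.854]. The promoters of EBF1 and BCL11A lie 588 kb and 453 kb from their enhancers, whereas that of MYB lies at 66.7 kb, and all intervals of the ratios stayed under 1.

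Genes of the B cell receptor, its recombination and signals made up 7 loci, and 6 of them fell. IGLL1, which encodes a part of the surrogate light chain of the pre-B cell receptor, had the lowest ratio of all loci and went from 1.98% (593 of 29894 counts) to 0.717% (244 of 34049), a ratio of 0.361 [0.310, 0.420]. IL7R, the interleukin-7 receptor, fell from 4.24% (2223 of 52455 counts) to 1.87% (1535 of 82174), a ratio of 0.441 [0.413, 0.471]. DNTT, the terminal transferase that adds bases during recombination, fell from 3.43% (1728 of 50419 counts) to 2.10% (1380 of 65734) and RAG2, a subunit of the recombinase, from 4.16% (1775 of 42704 counts) to 2.78% (1118 of 40260), with ratios of 0.613 [0.570, 0.658] and 0.668 [0.619, 0.720]. IGLL5 fell from 2.52% to 1.75% and the kinase gene BLK from 2.94% to 2.19%. IGLL1 and IGLL5 are related genes on one chromosome, and fragments of near-identical copies may be assigned with less certainty. CD38, an ectoenzyme of lymphocytes, was seen in 95 counts at 0 h and 108 at 24 h over 377 kb, a ratio of 1.01 [0.756, 1.34], an interval that holds both a rise of 25% and a ratio of 0.8, so that such changes were not detectable at this depth. In a 7.5 kb window CD38 had a log2 ratio of 0.60 and counted as risen.

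Of the 4 other B cell loci 3 fell. IRAG2, a membrane protein of lymphocytes also called LRMP, had the highest E-P-X share of all loci at 0 h and went from 5.17% (1908 of 36901 counts) to 2.50% (1427 of 57084), a ratio of 0.483 [0.451, 0.518]. At its outermost start the log2 ratio was 0.40. That start lies less than 10 kb from the viewpoint, so the exclusion removed most of its window. The value therefore does not measure contact with that start. The survival gene BCL2 fell from 1.84% to 1.33%, a ratio of 0.724 [0.654, 0.802]. The nuclear receptor gene RORB went from 1.00% to 0.914%, a ratio of 0.912 [0.805, 1.03], which did not differ from 1 beyond counting error.

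By distance, the share rose at 5 of 12 iMac loci with the promoter within 50 kb, 9 of 16 at 50 to 150 kb and 7 of 8 at 150 to 600 kb, with median ratios of 1.24, 1.31 and 1.69. For B cell genes the median ratios over the same bands were 0.694, 0.590 and 0.542. The share fell at 3 of 3, 5 of 5 and 5 of 7 of these loci. Farther loci were thus called more often among iMac genes but not among B cell genes. Of tiled windows at 10 to 100 kb and 100 to 300 kb, 14.3% and 12.8% rose around iMac genes. Around B cell genes 17.1% and 6.67% fell. No trend with distance was tested, as the distance bands of the promoters hold few loci.

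Because many windows along a locus changed, each promoter was ranked among the 12 kb windows of its own enhancer that held at least 50 counts. At FOSL2 0 of 105 windows had a higher ratio than the promoter, at NFKBIZ 1 of 118, at KDM7A 2 of 125, at KLF6 2 of 159, at LMO2 2 of 129 and at PELI1 3 of 138. CCR1, with 5 of 159, also stood near the top, and 18 of 36 iMac promoters were within the top 10% of their locus, with 0 in the bottom 10%. Promoters of B cell genes stood at the other end. No window fell more than the promoter at BCL11A, IRAG2, MYB, PAX5 and IGLL1, and 11 of 15 promoters were within the bottom 10%. CEBPA (68 of 164 windows higher) and IL10RA (86 of 159) lay in the middle of theirs. The windows reached 1 Mb to each side and were not matched to the promoter in distance. Their median log2 ratio at iMac loci was 0.02 within 100 kb and -0.17 at 500 to 600 kb. At B cell loci it was 0.01 and 0.42, so distance alone can shift these ranks.

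**Figure D2:**
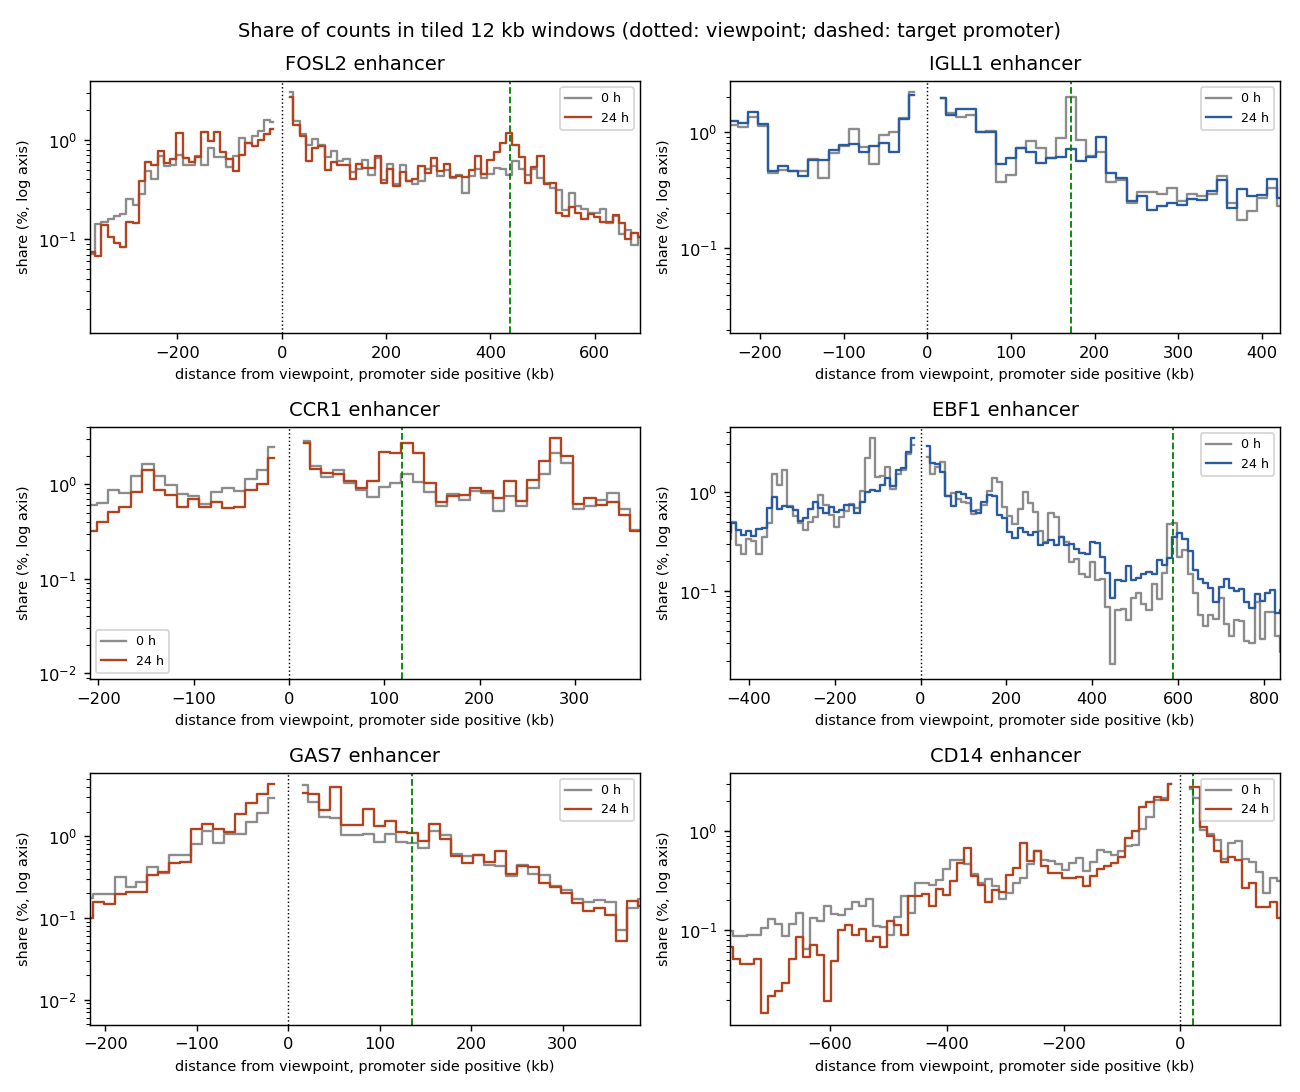
Share of the viewpoint's counts (percent, log axis) in tiled 12 kb windows against distance from the viewpoint in kb, with the promoter side positive, at 0 h (gray) and 24 h (colored) for 3 loci with large local rises (left: FOSL2, CCR1, GAS7), 2 with large falls (IGLL1, EBF1) and CD14; 1 pooled library per line. The promoter peak of IGLL1 at the dashed line falls from 1.98% to 0.717%, and the GAS7 profile gains most at a window inside the gene.

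At some loci the window that changed most was not the promoter. The GAS7 enhancer gained most at chr17:10109929-10121928, 52 kb away inside the GAS7 gene and 82.7 kb short of its promoter, which went from 1.69% (926 of 54883 counts) to 3.96% (2321 of 58643), a ratio of 2.35 [2.17, 2.53], against 1.32 [1.18, 1.49] at the promoter. The EBF1 enhancer lost most at chr5:158393703-158405702, 112 kb away on the side opposite to the promoter, which went from 3.42% (2392 of 69931 counts) to 1.05% (963 of 91960), a ratio of 0.306 [0.284, 0.330]. Before conversion this window drew more contacts than any promoter but those of IL7R, RAG2, DNTT and IRAG2 drew from their enhancers. At CCR1 the window with the largest ratio lay 448 kb away at LRRC2, from 0.142% to 0.350%, a ratio of 2.47 [2.00, 3.06], and the largest fall lay 808 kb away on the other side, with 0.406 [0.288, 0.567].

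The window that gained the most share in absolute terms held the target promoter at 10 of 36 iMac loci, among them FOSL2, KDM7A, LMO2 and NFKBIZ, and the window that lost the most held it at 4 of 15 B cell loci, including IGLL1 and IL7R. At KLF6 the largest gain lay 5.58 kb from the start, from 0.767% to 1.90%. At IRAG2 the largest loss lay inside the gene, 26.4 kb from the start, from 4.74% to 2.49%, while a window at DNAI7 beyond it gained, from 1.00% to 1.94%.

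Promoters of other genes in reach of the same enhancers moved in both directions. Within 500 kb, 280 such promoters were measured from 32 iMac enhancers, of which 58 (20.7%) rose and 49 (17.5%) fell, with a median log2 ratio of 0.06. Of tiled windows within 600 kb 12.8% rose and 23.9% fell, or 15.2% and 18.5% of those with 203 or more counts. From B cell enhancers 24 of 81 rose and 4 fell, with a median of 0.21, beside 32.5% and 7.02% of windows. The target lay below all its measured neighbors at 11 of 12 B cell loci with neighbors, and above all of them at 11 of 32 iMac loci and below all at 3. CAPRIN1, a neighbor of LMO2, had a ratio of 1.16 [0.928, 1.44] against 1.76 [1.61, 1.92] for LMO2, and SLC37A3, a neighbor of KDM7A, 1.20 [0.963, 1.5] against 1.75 [1.53, 2.01]. NSMCE2, whose gene holds the TRIB1 enhancer in an intron, had 0.865 [0.765, 0.980] at its promoter against 1.31 [1.18, 1.47] for TRIB1.

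The 5 lowest ratios among neighboring promoters with at least 50 counts lay in the protocadherin cluster, cell adhesion genes of neurons that the CD14 enhancer reached beyond its own target. All 11 promoter windows of protocadherins fell, together from 894 to 274 counts, with log2 ratios between -2.44 and -1.07. Every tiled 12 kb window 52 to 700 kb away on that side also had a log2 ratio below 0, between -2.98 and -0.066. The fall was thus not particular to protocadherin promoters. PCDHAC2, 355 kb away, went from 0.185% (85 of 46022 counts) to 0.0340% (14 of 41212), a ratio of 0.184 [0.0965, 0.326]. On the other side of the CD14 enhancer HBEGF, which encodes a growth factor of the EGF family, rose from 0.367% (169 of 46022 counts) to 0.776% (320 of 41212), a ratio of 2.11 [1.75, 2.56], while CD14 itself had 1.3 [1.20, 1.41]. Among CD14 windows with at least 50 counts the lowest ratio lay 604 kb away at NRG2, from 81 to 8 counts. DNAI7, a dynein-associated gene beyond IRAG2, rose from 0.279% (103 of 36901 counts) to 0.55% (314 of 57084), a ratio of 1.97 [1.57, 2.49], while IRAG2 fell.

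The study lists enhancers and CTCF sites in contact with these promoters at any of 3 time points. The list comes from separate promoter captures of the same conversion. Each element was measured here by its own 12 kb window. Those under 16 kb or over 1 Mb from the viewpoint, or under 12 kb from the target start, were left out. Of 302 further enhancers of iMac loci 113 (37.4%) rose and 11 (3.64%) fell (median log2 ratio 0.20). Of tiled windows 11.7% rose and 23.0% fell, or 15.2% and 18.5% of those with 203 or more counts within 600 kb. Of 56 of B cell loci 33 (58.9%) fell and 6 (10.7%) rose (median -0.39), against 7.02% of windows that fell and 32.5% that rose. Of the windows with 203 or more counts within 600 kb 10.9% fell and 30.1% rose. The 6 that rose all lay beyond the target promoter, 4 at IRAG2 and 1 each at IL7R and PAX5. Windows of nearby elements overlap, so these are not independent. The list was drawn from cells of this conversion and is no independent evidence of direction.

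Listed CTCF sites were measured in the same way. Of 333 sites around iMac genes 99 rose and 20 fell (median 0.16), beside 11.7% and 23.0% of tiled windows. Of 110 around B cell genes 25 rose and 26 fell (median -0.02), beside 32.5% and 7.02% of windows. Risen sites were thus a smaller part than among windows and fallen sites a larger one. Windows with 203 or more counts within 600 kb rose in 15.2% and fell in 18.5% of cases around iMac genes. Around B cell genes these were 30.1% and 10.9%. By locus, KLF6 had 19 of 27 measured enhancers that rose, CCR1 12 of 20, FOSL2 12 of 21 and TRIB1 0 of 16. IL7R had 5 of 7 that fell and EBF1 4 of 5. At EBF1 3 of 6 CTCF sites fell as well and 2 rose. At MYB, by contrast, 3 of 6 rose, while the 2 enhancers measured there, of 5 listed, fell.

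**Figure D3:**
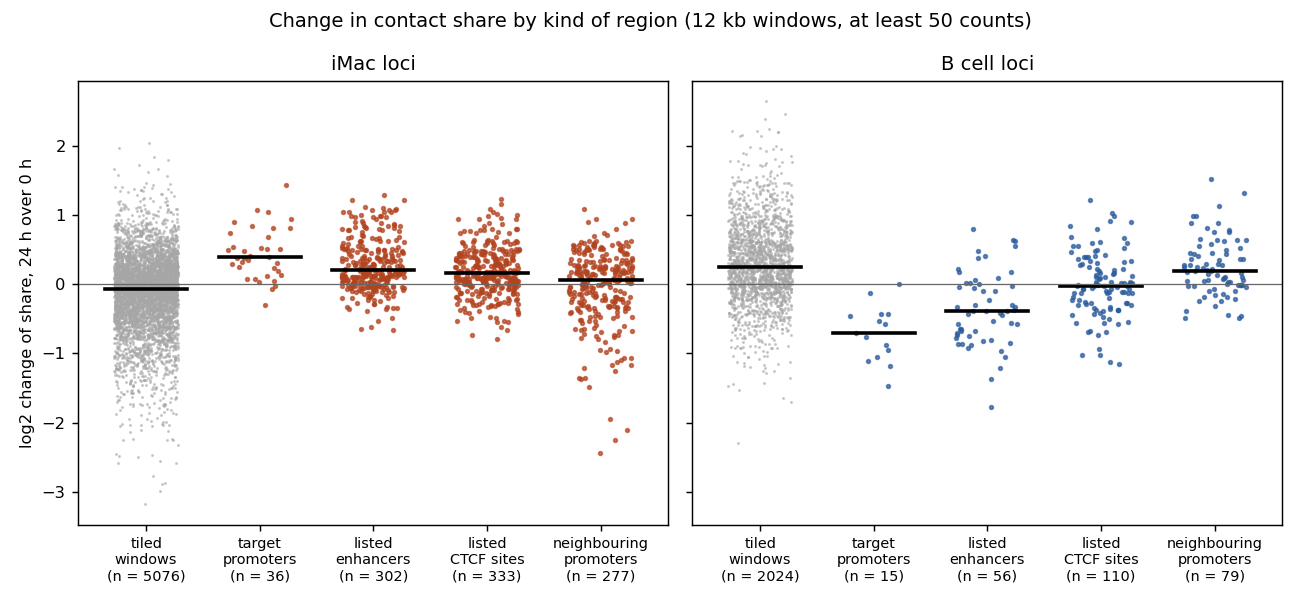
Log2 ratio of the 24 h share to the 0 h share for windows of 12 kb with at least 50 counts over both libraries, one point a window, by kind of region and class of locus; black bars are medians. Target promoters lie highest among iMac loci and lowest among B cell loci, while tiled windows of B cell loci lie above 0 at the median.

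Tri-C also shows whether both reporters of a count lie at listed elements at once. Three-way contacts of the viewpoint enhancer, a second enhancer and the promoter (E-E-P, in windows of 6 kb) had a median ratio of 1.72 over 31 measured iMac loci, 19 of which rose, and of 0.376 over 12 B cell loci, 10 of which fell. Among all pairs of 12 kb windows 14.0% rose and 9.93% fell around iMac genes, against 9.28% and 17.6% around B cell genes. Among pairs with at least 100 counts 26.9% rose and 7.29% fell around iMac genes, against 6.51% and 40.5% around B cell genes. These are single pairs of 12 kb windows, whereas each kind of contact sums all its pairs at a locus in 6 kb windows. The percentages are therefore of unlike units. Contacts of 3 enhancers (E-E-E) rose in 18 of 34 cases for iMac genes, and for B cell genes 6 of 10 fell. With a CTCF site in place of the second enhancer (E-C-P), 14 of 26 rose and 10 of 13 fell, with median ratios of 1.82 and 0.402. Contacts of both a CTCF site and a second enhancer (E-C-E) rose at 14 of 35 and fell at 8 of 14. Those with 2 CTCF sites (E-C-C) rose at 15 of 30 and fell at 4 of 14, with median ratios of 1.28 and 0.824. That is 28.6% of B cell loci for E-C-C, below the 40.5% of window pairs with at least 100 counts. Kinds with the promoter thus had the medians farthest from 1 in both classes.

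**Figure D4:**
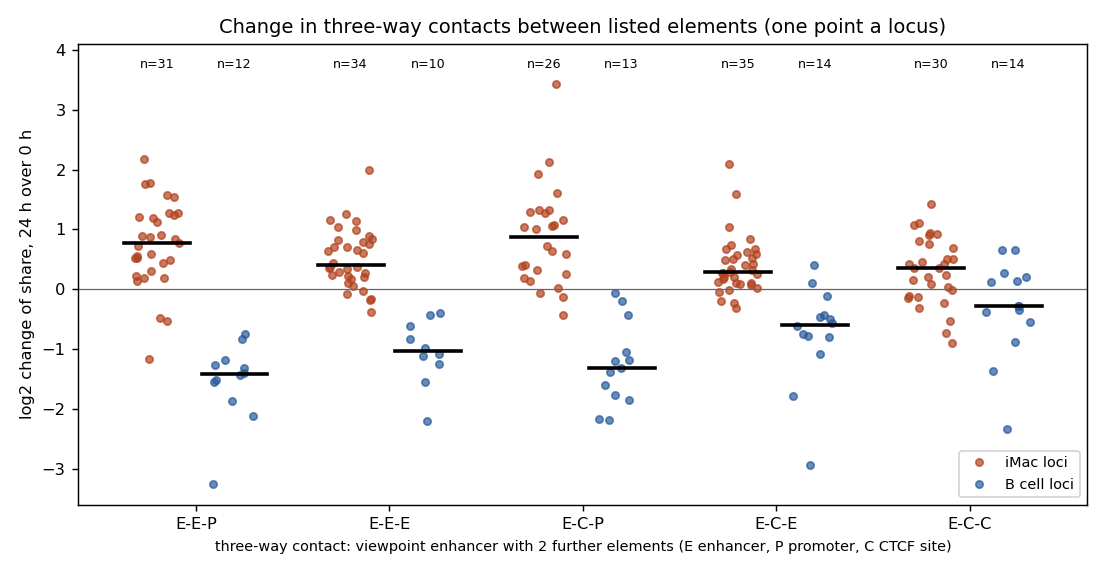
Log2 ratio of the 24 h share to the 0 h share for three-way contacts of the viewpoint enhancer with 2 further listed elements (E enhancer, P target promoter, C CTCF site), one point a locus with at least 20 counts over both libraries, with n above and medians as black bars. Medians of iMac loci are above 0 and those of B cell loci below 0 for all 5 kinds.

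At CCR1 all kinds with the promoter rose. Its E-E-P contacts went from 101 to 384 counts over totals of 86585 and 97353, a ratio of 3.38 [2.71, 4.25], its E-C-P contacts from 114 to 313 counts, a ratio of 2.44 [1.96, 3.05], and its E-C-C contacts had a ratio of 1.41 [1.28, 1.57]. The E-P-X ratio was 2.10 [1.97, 2.24], but it used a promoter window of 12 kb and E-E-P one of 6 kb. The 2 ratios are therefore not like for like. Among the E-P-X counts, the share with the other reporter within 3 kb of a listed enhancer had a ratio of 1.24 [1.09, 1.42]. That lay under the threshold. NFKBIZ had E-E-P contacts from 24 to 66 counts, a ratio of 2.42 [1.5, 4.05], and LMO2 from 60 to 86 counts, a ratio of 1.72 [1.22, 2.43]. PELI1 had the largest ratio of any three-way contact with at least 50 counts, 4.53 [2.38, 9.36], from 12 to 49 counts. GAS7 gained E-C-E contacts from 21 to 96 counts and E-E-E contacts from 17 to 72 counts. SRGN had E-E-P contacts from 163 to 278 counts, a ratio of 1.85 [1.52, 2.26]. At IRF8, E-E-E contacts went from 141 to 251 counts, a ratio of 2.39 [1.94, 2.96], and at KDM7A E-C-E contacts from 47 to 82 counts. At TRIB1, which has a pseudokinase product, E-E-P contacts went from 21 to 45 counts, while its more frequent E-E-E contacts had a ratio of 0.882 [0.746, 1.04].

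At B cell loci the lowest ratios were those of EBF1. Its E-C-E contacts went from 180 to 31 counts, a ratio of 0.131 [0.0864, 0.193], its E-C-C contacts from 88 to 23 counts and its E-E-E contacts from 42 to 12 counts. These were the 3 lowest ratios among three-way contacts with at least 50 counts. RAG2 lost E-E-P contacts from 115 to 37 counts, a ratio of 0.341 [0.229, 0.498], and E-C-P contacts from 116 to 44 counts, a ratio of 0.402 [0.278, 0.574], but its E-C-E contacts had a ratio of 0.930 [0.723, 1.20]. MYB lost E-E-P contacts from 45 to 24 counts, a ratio of 0.416 [0.242, 0.697].

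The makeup of the promoter contacts was read apart from their number, as the share of E-P-X counts in which the fragment beside enhancer and promoter lay within 3 kb of a listed enhancer. Its median was 12.4% at 0 h and 14.0% at 24 h for iMac genes, where 11 of 34 rose. For B cell genes it was 13.0% and 8.30%, and 7 of 12 fell. Of tiled windows away from the promoter, measured the same way, 14.2% rose and 4.85% fell around iMac genes, and 0.652% rose and 34.3% fell around B cell genes. These windows were not matched to the promoters in counts. Median log2 ratios were 0.31 at promoters and 0.20 in windows of iMac loci, and -0.63 and -0.51 at B cell loci. Much of the shift was thus shared by windows away from the promoter. At FOSL2 the share went from 15.6% to 27.0% (20 of 128 and 107 of 397 counts), at CD93 from 8.37% to 15.3% and at IRF8 from 14.4% to 22.5%. It fell at IGLL1 from 7.25% to 1.64% (43 of 593 and 4 of 244 counts), at IRAG2 from 21.7% to 10.2% and at DNTT from 10.8% to 5.43%. Listed CTCF sites held that fragment in a median of 11.1% and then 12.9% of E-P-X counts of iMac genes, where 13 of 32 rose, beside 12.6% of windows that rose and 4.27% that fell. Among B cell genes 5 of 13 fell, beside 17.9% of windows that fell and 3.53% that rose, and 1, PAX5, rose, from 5.25% to 9.91%. With CTCF sites, median log2 ratios at promoters and in windows were 0.38 and 0.20 (iMac), and -0.29 and -0.26 (B cell).

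Contacts also shifted along the chromosome as a whole. Counts whose farther reporter lay 200 to 1000 kb from the enhancer made up a median of 39.9% of the total at 0 h and 37.3% at 24 h for iMac enhancers, where 7 of 36 (19.4%) fell and none rose. At B cell loci the medians were 36.5% and 39.4%, and 5 of 15 (33.3%) rose and none fell. The falls were at IRF8 (from 26.5% to 17.4%), LMO2 (from 32.3% to 20.7%), CD93 (from 40.0% to 27.3%), GAS7, SRGN, KDM7A and NFKBIZ. The rises were at IRAG2 (from 14.5% to 24.2%), MYB (from 27.5% to 37.4%), IL7R (from 37.0% to 49.6%), PAX5 and RAG2. Of these 12 loci the iMac ones, apart from CD93, had gained promoter contacts and the B cell ones had lost them. Gains of promoter contacts were common in the whole iMac class (21 of 36), as were losses in the whole B cell class (13 of 15). The far share and the E-P-X share of a locus are also divided by the same total, so they are not independent. A link between far contacts and promoter contacts was not tested.

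Single windows were read the same way. Windows within 100 kb had a median log2 ratio of 0.02 around iMac enhancers and 0.01 around B cell enhancers, and windows 500 to 600 kb away had -0.17 and 0.42. The median over windows 300 to 1000 kb away lay below 0 at 23 of 36 iMac loci, with a range of -0.92 to 0.20, and above 0 at 13 of 15 B cell loci, with a range of -0.10 to 0.81. NFKBIZ had the lowest and IRAG2 the highest. Shares of the distance bands add up to the total of a locus, so a gain near the enhancer lowers the shares far from it. The 2 cannot be told apart by shares alone. Window shares are divided by the same total but do not add up to it.

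**Figure D5:**
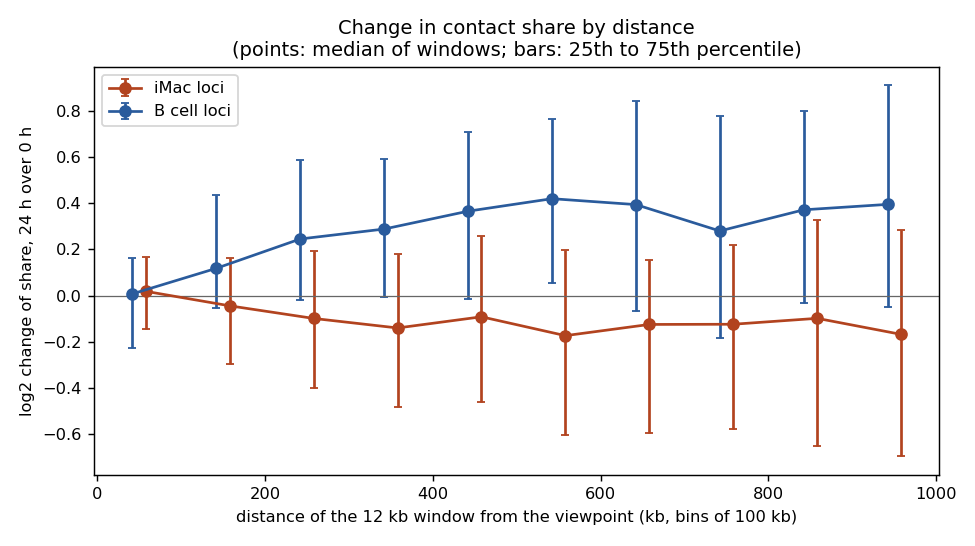
Median log2 ratio of the 24 h share to the 0 h share of tiled 12 kb windows by distance from the viewpoint in bins of 100 kb, for iMac and B cell loci (points shifted sideways for clarity); bars span the 25th to 75th percentile of windows. Both classes start near 0 within 100 kb and part with distance, to -0.17 and 0.42 at 500 to 600 kb.

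The sides of the enhancer were compared too. Counts with reporters on opposite sides of the viewpoint, both more than 10 kb off, made up a median of 10% of the total at 0 h and 10.1% at 24 h for iMac enhancers, and 9.11% and 9.65% for B cell enhancers. Those with both reporters on the promoter's side were 32.2% and 33.5% for iMac enhancers and 38.7% and 36.0% for B cell enhancers. Locus by locus, however, the median ratios were 1 and 1.01, with ratios above 1 at 18 of 36 and 8 of 15 loci. Only 1 iMac locus rose and 1 fell, and 0 B cell loci did either. Those with both on the other side went from 29.7% to 26.9% for iMac enhancers, where 4 of 36 fell and 0 rose, and from 28.9% to 28.0% for B cell enhancers, where 0 fell and 1 rose.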

How the data were processed

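Tri-C reads of BLaER1 cells at 0 h and 24 h were processed by the authors with CapCruncher 0.2.3 against hg38, and the 3 biological replicates of a group (each with 3 technical replicates) were merged. The deposited counts of reporter pairs per viewpoint, made by the authors with a custom script, were used as raw counts in 102 of 371 files. No column of other samples was used. From them, the counts in windows were summed and divided by the total of the viewpoint within 1 Mb with Python 3.11.15 and NumPy 2.4.6. Ratios of shares had exact conditional 95% intervals (SciPy 1.17.1), and a share needed 20 counts over both libraries to be measured and 50 to be named as a window, neighbor or element pair. With 1 pooled library per condition, no p-value was given. Promoters were the canonical starts of GENCODE 44. Positions of enhancers and CTCF sites came from the study's list, without its values. The intervals and the rule for a rise or fall were tested on simulated independent counts. That test left out the summing of counts in windows and the dependence among counts of one read. Named genes were all target loci, with neighbors, windows and pairs at the ends of the ranking. Members and lists were chosen with earlier results of these data known. Values of some single loci are not reported here, although they are part of all counts and medians. The alternatives were other windows, exclusions, totals, thresholds, promoter starts and ways of counting.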

Additional observations from a re-analysis of the deposited data

How the results depend on the processing

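No paired analysis was possible because each file pools the 3 replicates of its group, and no replicate could be left out. Of the counts and shares that summarise the results, recomputed under 33 other settings, 148 values stayed within 1.5 times and 20 did not. B cell loci that fell went from 13 of 15 to 8 with windows of 30 kb and to 8 at a threshold of 1.5-fold. A rise was called at 1 B cell locus with windows of 7.5 kb (CD38) or at the outermost start (IRAG2). Most of that IRAG2 window lay inside the 10 kb exclusion. Exactly 1 iMac locus fell with windows of 7.5 kb or 30 kb, an exclusion of 5 kb, distant counts as the total, each pair counted once, directly neighboring fragments left out, or an exact conditional binomial test with Benjamini-Hochberg adjustment. At 1.5-fold, 10 iMac loci rose, as did 6.14% of iMac windows, 18 promoters that neighbor iMac genes and 15 that neighbor B cell genes, while 3.87% of B cell windows and 0 neighboring promoters at B cell loci fell. That last count was 2 with windows of 30 kb and 8 with distant counts as the total. With element windows of 12 kb, E-C-P contacts rose at 22 iMac loci, where 14 of 26 measured had risen with 6 kb. With the outermost start the log2 ratio reversed to -0.019 at RBPJ. E-E-E contacts of SRGN went from 0.37 to -0.16 with an exclusion of 20 kb. The cause of these changes was not tested. The value of 0.40 at IRAG2 with the outermost start came from a window cut by the exclusion. Of the 34 loci called, 13 kept their call under every alternative run. Leaving out the locus whose viewpoint gap lay away from the listed oligonucleotide, a setting chosen after seeing the data, moved none of the counts of E-P-X, neighboring promoters or element pairs by over 1.5 times. Shares that rest on few counts, down to the minimum of 20 over both libraries, have wide intervals.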
